A study of Mus musculus with 9 samples.

Results

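Macrophages of the mouse peritoneal cavity were compared between mice given interferon gamma (IFNg, the type II interferon) and mice given nothing. The comparison took, by their treatment labels, the 2 arrays of the IFNg group and the 3 arrays of the untreated group, 5 of the 9 arrays of the series. The IFNg mice had received 8000 U of the recombinant protein under the skin 2 h before they were killed. The other 4 arrays, from mice given 10000 U of recombinant interferon alpha (IFNa, of type I) 2 h earlier, entered the estimate of the spread and a direct comparison. All mice were C57BL/6 males of 6 weeks of age, and macrophages from the lavage were sorted 2 times by flow cytometry into TriZol. The labels give the sorted cells as F4/80+ ICAM2+ after either interferon and as F4/80+ without treatment, whereas the design text of the series gives 1 gate, F4/80+ ICAM+, for all. No mice injected with vehicle alone were among the samples. IFNg, the injection itself and any difference in the sorting gate therefore cannot be told apart. The labels do not say whether an array holds cells of 1 mouse or of several, and the p-values therefore measure the spread between these samples.

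IFNg is released mainly by T cells and natural killer cells and is the classical activator of macrophages. Its receptor, made of the chains encoded by Ifngr1 and Ifngr2, activates the kinases JAK1 and JAK2, and the signal acts on genes through gamma-activated sites (GAS) in DNA. Genes induced in this way, such as Irf1, encode factors that act on interferon-stimulated response elements (ISRE), the element through which type I interferons mainly act.

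Each of 19752 genes was tested on the log2 of its array intensity, and a call needed an adjusted p under 0.05. Median intensity over genes ranged from 164 to 179 among the 9 arrays. The 2 IFNg arrays were close to each other, with a correlation across genes of 0.996 and a median standard deviation (SD) of log2 0.0634 per gene. They held identical values in 778 genes, a number that was 104 to 1275 in the other pairs of arrays. The untreated arrays varied more, with a median SD of 0.221, which fell to 0.136 without untreated replicate 1. That array and IFNa replicate 4 had a narrow intensity range, with a log2 ratio of upper to lower quartile of 2.18 and 2.06 against 2.60 to 2.96 in the other 7 arrays. Adgre1, which encodes F4/80, differed between IFNg and untreated by log2 0.01 ± 0.12 and Icam2 by 0.05 ± 0.17, and neither was called. The summed intensity of 26 markers of large peritoneal macrophages was 159260 to 167829 in the untreated arrays and 150624 to 159395 in the IFNg arrays, and no member's group mean lay below the mean of the array medians. Summed intensities of the markers of other lineages (lymphocytes, granulocytes, mast cells, mesothelium, red cells) were at most 4689 in these 5 arrays, the highest being that of neutrophils and eosinophils, at 4202 to 4689 untreated and 3362 to 3723 after IFNg. In the mixed list of small peritoneal macrophages, monocytes and dendritic cells the sum was 12962 to 14581 untreated and 13014 to 13845 after IFNg.

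Many more genes were higher than lower 2 h after IFNg. Of the 19752 genes, 245 were called higher (1.24%) and 22 lower (0.111%), so that 91.8% of calls were rises. The counts of rises and falls in each gene list below are to be read against these shares. Because the lists were chosen with earlier results of these data known, a higher share in a list is not a test of it. At least 2-fold changes accounted for 217 of the rises and 13 of the falls, and 71 genes rose at least 4-fold. The median change was log2 1.49 among called rises and -1.03 among called falls, against -0.06 over all genes tested. The IFNg arrays did not overlap the untreated arrays in any called gene, but that alone was common, since 12.3% of all genes lay higher and 15.5% lower without overlap. After quantile normalization 276 genes were called higher and 80 lower, so that 77.5% of calls were rises. Counts depended on single arrays, with 79 rises and 1 fall without IFNg replicate 1, 90 and 3 without IFNg replicate 2, 138 and 2 without untreated replicate 2, and 309 and 44 without IFNa replicate 4. A fit of the 5 arrays of these groups alone called 112 higher and 7 lower, and the genes named below that lost their call in it are given with its adjusted p. Without the 2 arrays of narrow range 358 genes were called higher and 145 lower. Untreated replicate 1 was the lowest of the untreated arrays in 173 of the 245 called rises and in 8079 of all 19752 genes.

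**Figure D1:**
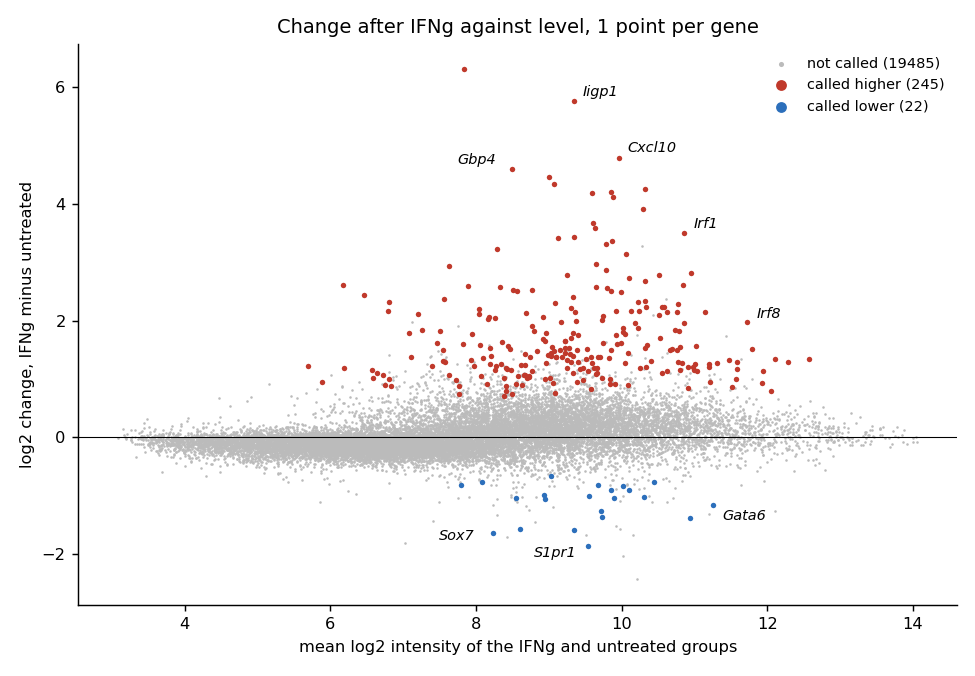
Log2 change between IFNg (2 arrays) and untreated (3 arrays) on the vertical axis against the mean log2 intensity of both groups on the horizontal axis, 1 point per gene. The 245 genes called higher (red) reach above 4 on the log2 scale, whereas the 22 called lower (blue) all lie between 0 and -2.

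GTPases that interferons induce were among the largest rises, next to the gene listed as BC023105, which was singled out after its values were seen and had the largest rise of all genes tested (log2 6.30 ± 0.29, adjusted p = 6.85e-06). Its untreated values, 22.6 to 32.7, lay near the 5th percentile of those arrays (28.9, 26.6 and 24.7), so that the rise is best read as a lower limit. These proteins coat and disrupt the vacuoles in which bacteria and parasites live. Iigp1, of the immunity-related GTPase family, stood at 75.9, 72.7 and 124 in the untreated arrays and 5186 and 4381 in the IFNg arrays. Both IFNg arrays lay far above all 3 untreated arrays, a rise of log2 5.76 ± 0.28 (54.2-fold, adjusted p = 6.85e-06). Irgm1, which controls the loading of the other family members, read 189, 393 and 452 in the untreated arrays and 5175 and 4587 in the IFNg arrays and rose by log2 3.92 ± 0.31 (15.1-fold, adjusted p = 0.000203). The related Ifgga2 and Ifgga3, listed in the files as Gm4951 and Gm4841, rose by log2 3.14 and 3.42. In all, 4 of 5 measured members rose, with a list median of 3.42.

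Guanylate-binding proteins, a second GTPase family, rose in 7 of 8 measured members, with a list median of log2 3.07. Gbp5 read 169, 221 and 266 in the untreated arrays and 4326 and 3648 in the IFNg arrays, a rise of log2 4.21 ± 0.19 (18.5-fold, adjusted p = 6.85e-06). Gbp4 gave 91.7, 77.1 and 55.6 in the untreated arrays and 2700 and 1163 in the IFNg arrays and Gbp11 103, 139 and 91.1 in the untreated arrays and 3027 and 1926 in the IFNg arrays. The groups were well apart in both genes although the 2 IFNg arrays differed, and the rises were log2 4.60 ± 0.33 and 4.47 ± 0.26. Gbp9, Gbp7 and Gbp3 followed at 3.31, 2.82 and 1.56. Gbp3 and Gbp7 already had intensities of 588 or more in every untreated array. Gbp8 stayed dim, at 77.9, 49.1 and 37.7 untreated and 282 and 194 after IFNg (2.16), and the call of Gbp8 ended in some fits (adjusted p 0.00517 to 0.183 without each of IFNg replicates 1 and 2 and untreated replicate 2). Gbp8 (0.0701) also lost the call in the fit of these groups alone. Gbp2b, at 1.00 ± 0.22, was not called. Members of this family share sequence, and how far their probes cross-hybridise was not tested.

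**Figure D2:**
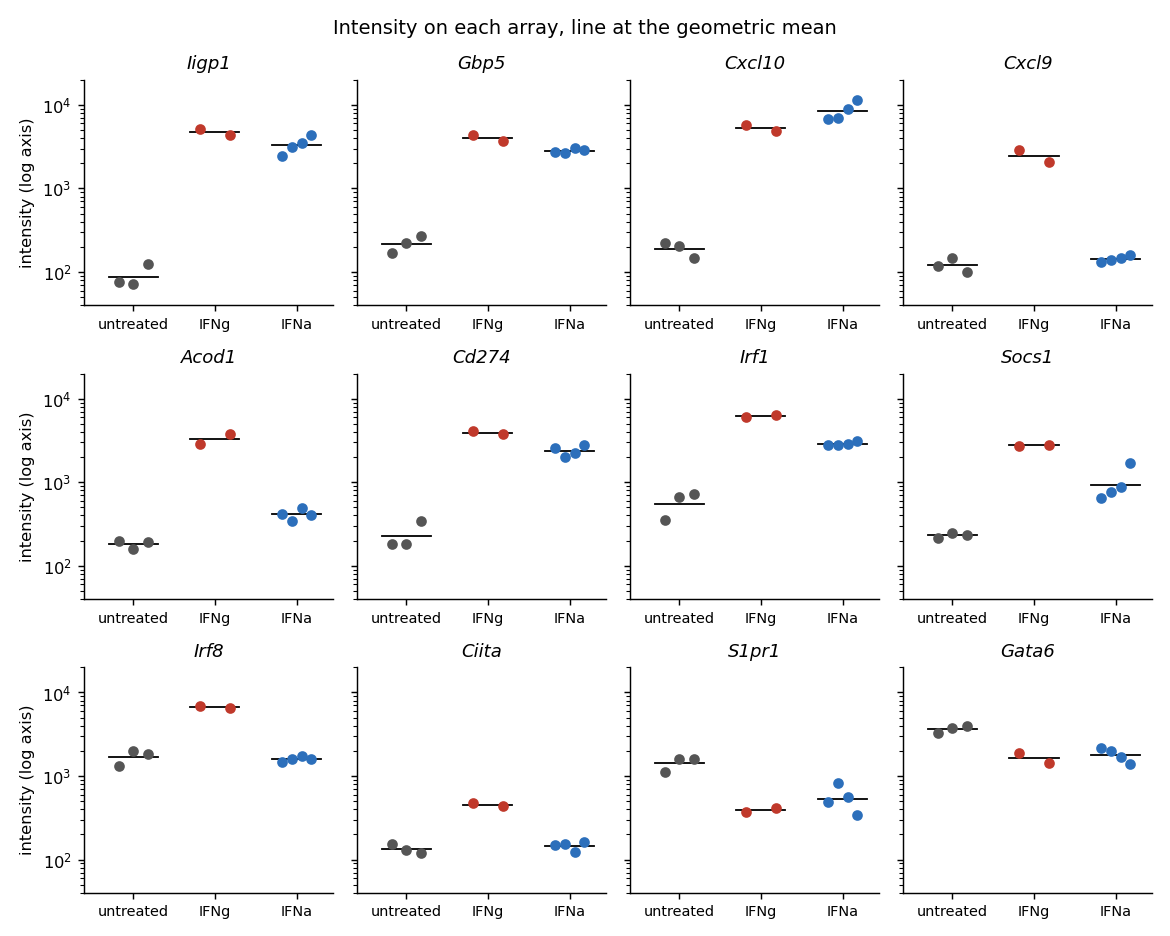
Intensity of 12 genes on each of the 9 arrays (log axis), by group, with a line at the geometric mean. The IFNg points of Iigp1, Gbp5, Cxcl10, Cxcl9, Acod1, Cd274, Irf1, Socs1, Irf8 and Ciita lie above all untreated points and those of S1pr1 and Gata6 below them, and Cxcl9, Irf8 and Ciita stay near the untreated level after IFNa.

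Among the genes of the receptor and its signal, 1 of 14 measured members rose. It was Stat2, which encodes a transcription factor of type I interferon signalling, at 307, 403 and 477 in the untreated arrays and 2331 and 2083 in the IFNg arrays. The rise was log2 2.50 ± 0.18 (5.66-fold, adjusted p = 0.000121). Both receptor chains had lower means in the IFNg arrays, Ifngr1 at 1894, 2233 and 2379 in the untreated arrays and 1410 and 1788 in the IFNg arrays and Ifngr2 at 1841, 2508 and 2746 in the untreated arrays and 1772 and 1670 in the IFNg arrays. Neither change, log2 -0.44 ± 0.23 and -0.44 ± 0.18, was called (adjusted p = 0.677 and 0.565). Jak2 (0.65 ± 0.27), Stat3 (0.99 ± 0.21, adjusted p = 0.0566) and Irf9 (0.79 ± 0.26) had higher means without a call. Without untreated replicate 3 this list had 2 calls.

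Feedback inhibitors of the pathway rose in 3 of 17 measured members, with a list median of 0.35. Socs1, which blocks JAK kinases and is the main brake on IFNg, read 213, 244 and 236 in the untreated arrays and 2707 and 2799 in the IFNg arrays. The untreated values were nearly equal and the IFNg values more than 10 times higher, a rise of log2 3.58 ± 0.33 (11.9-fold, adjusted p = 0.000512). Socs2, a brake best known from growth hormone signalling, went from 71.5, 78.1 and 68.9 to 321 and 198 (1.79 ± 0.23). Usp18, which strips ISG15 from proteins and restrains IFNa receptor signalling, went from 166, 300 and 439 to 1551 and 1402 (2.40 ± 0.32). These 2 calls ended in some fits, Socs2 (0.00286 to 0.0717) without IFNg replicate 1 and Usp18 (0.00173 to 0.0967) without each of IFNg replicates 1 and 2, where the range is that of the adjusted p over the 9 fits that each left out an array. Usp18 (0.0815) also lost the call in the fit of these groups alone. The second probe set of Socs2 stood at 0.34 and was not called. Cish (1.91, adjusted p = 0.0503) and Socs3 (1.76, adjusted p = 0.0664) missed the threshold, though a second, dimmer probe set of Socs3 was called at 1.28. The list had 1 call without IFNg replicate 1 and 5 without IFNa replicate 4.

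Of the 27 transcription factor genes measured 5 rose, with a list median of 0.38, and 4 of them kept the call whichever array was left out. Irf1, the factor that drives the secondary response to IFNg, read 358, 659.9 and 716 in the untreated arrays and 6083 and 6398 in the IFNg arrays. Both IFNg values lay far above the 3 untreated values, a rise of log2 3.50 ± 0.26 (11.3-fold, adjusted p = 0.000125). A second, dimmer probe set of Irf1 was called as well, at 1.36. Batf2, which pairs with IRF1 in activated macrophages, read 301, 319 and 258 in the untreated arrays and 3335 and 2698 in the IFNg arrays and rose by log2 3.36 ± 0.23 (10.3-fold, adjusted p = 7.63e-05). Irf8, a lineage factor of myeloid cells, read 1310, 2019 and 1860 in the untreated arrays and 6916 and 6541 in the IFNg arrays (1.98 ± 0.18). Ciita, the master regulator of MHC class II genes, read 152, 129 and 120 in the untreated arrays and 478 and 433 in the IFNg arrays (1.78 ± 0.16). The groups did not overlap in either gene, as in every called gene. Irf7, the amplifier of type I interferon production, rose by 1.81 ± 0.34 (adjusted p = 0.0333). The call of Irf7 ended in 6 of the 9 fits that left out an array (0.00768 to 0.326 without each of IFNg replicates 1 and 2, untreated replicate 2 and IFNa replicates 1, 2 and 3). Median centring of the arrays also ended it (adjusted p = 0.0572), and so did the fit of these groups alone (0.203). Batf, with 0.68 ± 0.14 and an adjusted p of 0.0583, was not called.

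Promoters are printed for 4 strongly risen genes, to show DNA that holds or lacks the GAS and ISRE letters. They come from RefSeq for build GRCm38.p6, as the 250 bases before the start site, 5′ to 3′ on the gene's strand. Capitals mark matches to the GAS motif TTCNNNGAA or the ISRE motif (GAAA, any 2 bases, GAAA) on either strand. Of the 19752 genes, 15435 matched a RefSeq promoter. The promoter of Gbp5 (chr3:142496684-142496933, + strand) holds GAS matches 245 and 52 bases before the start and an ISRE match 165 bases before it. The one of Irf1 (chr11:53769764-53770013, + strand, the first of 2 start sites) holds a GAS match 90 bases before the start. The one of Cxcl10 (chr5:92348890-92349139, - strand) holds an ISRE match 213 bases before the start. The one of Cxcl9 (chr5:92328080-92328329, - strand) holds neither in this window.
Gbp5: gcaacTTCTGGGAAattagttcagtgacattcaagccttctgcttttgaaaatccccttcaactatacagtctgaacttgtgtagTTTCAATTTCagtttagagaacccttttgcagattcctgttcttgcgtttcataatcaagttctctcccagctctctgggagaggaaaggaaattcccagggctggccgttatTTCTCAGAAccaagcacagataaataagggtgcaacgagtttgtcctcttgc
Irf1: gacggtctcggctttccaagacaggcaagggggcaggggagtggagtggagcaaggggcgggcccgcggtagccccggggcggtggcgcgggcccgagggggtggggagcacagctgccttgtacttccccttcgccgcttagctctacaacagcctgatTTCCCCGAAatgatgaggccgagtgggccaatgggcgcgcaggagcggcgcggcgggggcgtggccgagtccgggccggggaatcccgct
Cxcl10: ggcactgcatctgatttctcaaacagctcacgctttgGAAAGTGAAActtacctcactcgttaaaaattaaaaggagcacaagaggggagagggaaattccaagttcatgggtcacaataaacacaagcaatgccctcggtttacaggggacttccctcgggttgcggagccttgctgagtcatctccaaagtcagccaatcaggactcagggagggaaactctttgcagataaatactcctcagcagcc
Cxcl9: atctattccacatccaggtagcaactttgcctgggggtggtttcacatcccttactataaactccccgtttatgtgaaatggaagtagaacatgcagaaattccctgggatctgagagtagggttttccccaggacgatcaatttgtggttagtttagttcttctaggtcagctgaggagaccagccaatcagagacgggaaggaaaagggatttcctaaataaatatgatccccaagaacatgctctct

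Over windows of 300 bases, from 250 before to 50 after the start, 16.7% of the 192 risen genes with a promoter held a GAS match and 19.3% an ISRE match. Among all 15435 genes with a promoter the shares were 9.0% and 3.9%. The 51 genes with a promoter that rose at least 4-fold held them in 21.6% and 33.3% of cases. Socs1 and Irgm1 each carried a pair of ISRE matches that overlap, the first 83 and 30 bases before the start respectively. Of the 17 lowered genes with a promoter, 2 held a GAS match and none an ISRE match. The 2 motifs can overlap each other, and these shares describe letters in a window, not binding. Gbp4, Gbp11, Batf2 and Ciita had no promoter in the table.

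Chemokine genes split into a few very large rises and many without a call. Cxcl10 and Cxcl9 encode ligands of CXCR3, which draw activated T cells and NK cells. Cxcl10 read 221, 206 and 149 in the untreated arrays and 5670 and 4847 in the IFNg arrays and rose by log2 4.79 ± 0.25 (27.7-fold, adjusted p = 1.58e-05). Cxcl9 read 119, 146 and 98.9 in the untreated arrays and 2854 and 2068 in the IFNg arrays and rose by log2 4.34 ± 0.20 (20.3-fold, adjusted p = 6.85e-06). Both were apart from all untreated arrays by more than 13-fold, whereas the third CXCR3 ligand, Cxcl11, read 78.9, 61.8 and 61.8 in the untreated arrays and 63.0 and 54.7 in the IFNg arrays (-0.19 ± 0.16, adjusted p = 0.761). The monocyte-attracting chemokine genes Ccl2, Ccl7 and Ccl12 rose by 2.73 ± 0.40, 2.86 ± 0.52 and 2.11 ± 0.31. Their replicates were uneven, with Ccl7 at 229, 545 and 279.8 in the untreated arrays and 1422 and 3972 in the IFNg arrays. Those 3 calls ended in some fits, Ccl2 (0.00548 to 0.137) without IFNg replicate 2, Ccl12 (0.00232 to 0.131) without each of IFNg replicates 1 and 2 and Ccl7 (0.0257 to 0.294) without each of IFNg replicate 2, untreated replicates 1 and 3 and IFNa replicate 1, and that of Ccl7 also without both arrays of narrow range (adjusted p = 0.0546). Ccl2 (0.0962) and Ccl7 (0.117) also lost the call in the fit of these groups alone. In all 5 of 26 chemokine genes rose, 2 of them without IFNg replicate 2, and the list median was -0.11.

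Of 27 cytokine genes measured, 3 rose, and the list median was -0.11. Il18bp, the secreted decoy that binds IL-18, read 495, 583 and 676 in the untreated arrays and 1913 and 1664 in the IFNg arrays (1.62 ± 0.16). Csf1, the growth factor of macrophages, read 263, 348 and 368 in the untreated arrays and 887 and 914 in the IFNg arrays (1.48 ± 0.17). In both genes every IFNg value was above every untreated value, as in every called rise. Il15, which sustains NK cells and memory T cells, rose by 1.38 ± 0.24, a call that ended without either IFNg array (0.0144 to 0.223) and in the fit of these groups alone (0.127). Il18 (1.34 ± 0.34, adjusted p = 0.134) and Il6 (-0.56 ± 0.35, adjusted p = 0.719) were not called.

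Receptors for cytokines rose in 7 of 25 measured members, with a list median of 0.17, where 1.24% of all genes rose. Il18rap, the accessory chain of the IL-18 receptor, read 76.3, 77.0 and 90.4 in the untreated arrays and 263 and 318 in the IFNg arrays and rose by log2 1.84 ± 0.15 (3.57-fold, adjusted p = 0.000225). Csf2rb, the shared signalling chain of the GM-CSF, IL-3 and IL-5 receptors, and its neighbour Csf2rb2 rose by 1.34 ± 0.16 and 1.58 ± 0.20, a pair alike in sequence. Csf2rb was already bright without treatment, at 2332, 2956 and 3138, and reached 7614 and 6497. The other risen receptor genes were Il15ra (1.38), Il4ra (1.30), Il10ra (1.20) and Tnfrsf1a (1.16). All but Il18rap lost the call in some fits, Csf2rb (0.00346 to 0.0717) and Csf2rb2 (0.00412 to 0.0807) without IFNg replicate 1, Il15ra (0.00307 to 0.142) without each of IFNg replicates 1 and 2, Il10ra (0.0195 to 0.232) without each of IFNg replicates 1 and 2 and untreated replicate 2 and Il4ra (0.000973 to 0.244) and Tnfrsf1a (0.00684 to 0.288) without each of IFNg replicates 1 and 2 and untreated replicates 1 and 2. Quantile normalization also ended the call of Il4ra (adjusted p = 0.108). Il10ra (0.112) and Tnfrsf1a (0.074) also lost the call in the fit of these groups alone. The list had 1 call without IFNg replicate 1, 3 without IFNg replicate 2 and 4 without untreated replicate 2.

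Ligands and adhesion molecules at the contact with lymphocytes rose in 4 of 22 measured members (list median 0.11). Cd274, the gene of PD-L1, a ligand that restrains T cells, read 183, 184 and 341 in the untreated arrays and 4079 and 3800 in the IFNg arrays and rose by log2 4.13 ± 0.27 (17.5-fold, adjusted p = 6.42e-05). Icam1, a ligand of the integrin LFA-1, read 542, 643 and 528 in the untreated arrays and 2773 and 2364 in the IFNg arrays (2.17 ± 0.21). Slamf8, a member of the SLAM receptor family, read 123, 119 and 128 in the untreated arrays and 666 and 474 in the IFNg arrays (2.19 ± 0.23). The fourth was Tnfsf14, the cytokine LIGHT, whose rise of 1.31 ± 0.16 lost its call without IFNg replicate 2 (0.00173 to 0.0687). Cd40, a receptor of T cell help, had a higher mean without a call (0.54 ± 0.21, adjusted p = 0.508).

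Antigen presentation genes moved in part at 2 h. Of 19 genes of peptide processing and MHC class I, 3 rose, and the list median was 0.46. The classical class I genes H2-K1 and H2-D1 were listed but not among the genes measured, so their change is not known here. Tap1, a chain of the peptide transporter, read 523, 625 and 651 in the untreated arrays and 2868 and 2725 in the IFNg arrays and rose by log2 2.23 ± 0.15 (4.68-fold, adjusted p = 7.37e-05). The MHC class I-like gene H2-T24 read 529, 546 and 709.6 in the untreated arrays and 2406 and 2173 in the IFNg arrays (1.96 ± 0.18). Psmb9, a catalytic subunit of the immunoproteasome, rose by 1.49 ± 0.19, which lost its call without IFNg replicate 1 (0.00347 to 0.0862). Tap2 (0.45 ± 0.12), Tapbpl (0.63 ± 0.15), Psmb10 (0.86 ± 0.23) and Psme2 (0.81 ± 0.19) had higher means and no call, and without untreated replicate 3 the list had 5 calls. In the MHC class II list Ciita alone of 14 measured genes rose. The class II chain gene H2-Eb1 (-0.60 ± 0.26, adjusted p = 0.574) and the invariant chain gene Cd74 (-0.59 ± 0.26, adjusted p = 0.603) were not called, and the list median was -0.13.

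Nlrc5, the transactivator of MHC class I genes, showed how a single probe set can decide a call. Its brightest probe set, the one used for the gene, read 1960, 1307 and 1021 in the untreated arrays and 2893 and 2612 in the IFNg arrays (1.00 ± 0.28, adjusted p = 0.199) and was not called. The array carries 19 probe sets for Nlrc5, and both IFNg arrays lay above all untreated arrays in all 19. In a fit of every probe set, 15 of them were called higher, with values from 0.67 to 3.07 over the 19 and a median of 2.20. The 3 other uncalled ones stood at 0.91, 0.71 and 0.67. The median after IFNa was 1.74, and no Nlrc5 probe set was called between the interferons. Over all genes with several probe sets, 17 had a call in at least 1 of them, and in 10 of these only a probe set other than the brightest was called. Socs3 and the phosphatase gene Ptpn2, singled out after the values were seen, were among those 10.

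**Figure D3:**
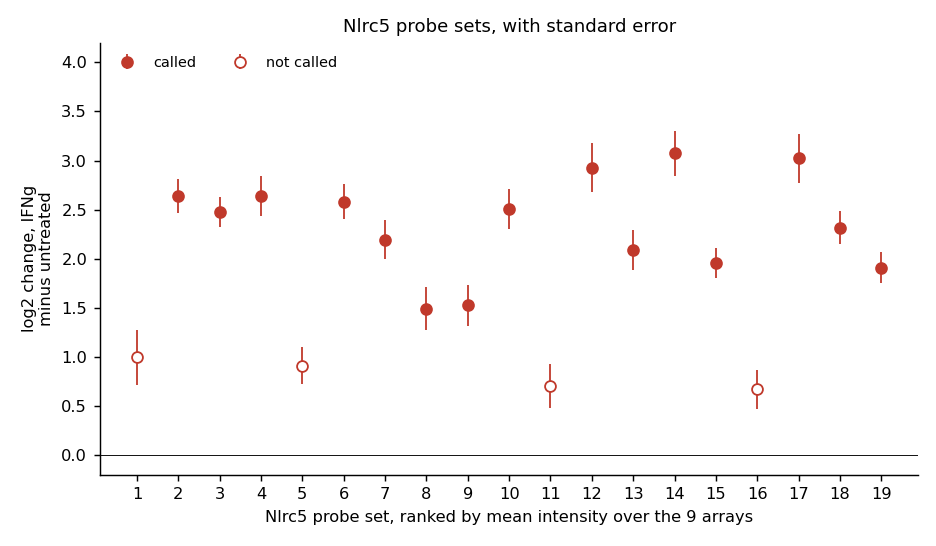
Log2 change between IFNg and untreated for each of the 19 Nlrc5 probe sets, ordered by mean intensity over the 9 arrays, with the standard error (filled points passed the test in the fit of every probe set). All 19 lie above 0, and the 4 that were not called are those at 1.00, 0.91, 0.71 and 0.67.

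In a mixed list of microbicidal and metabolic genes 6 of 27 measured members rose (list median 0.15). The oxidase genes Cybb, Cyba, Ncf1 and Ncf4 and the lysozyme genes Lyz1 and Lyz2 of this list were not called. Acod1, which makes itaconate from a Krebs cycle intermediate, read 196, 159.5 and 192 in the untreated arrays and 2876 and 3764 in the IFNg arrays and rose by log2 4.18 ± 0.19 (18.1-fold, adjusted p = 6.85e-06). Nampt, the rate-limiting enzyme of NAD salvage, went from 313, 653 and 852 to 4250 and 3440 (2.78 ± 0.34). Wars, which encodes tryptophanyl-tRNA synthetase, rose by 2.15 ± 0.28 and Ido1, which degrades tryptophan, by 1.00 ± 0.15. Upp1, uridine phosphorylase, rose by 1.62 ± 0.21 and Sod2, the mitochondrial superoxide dismutase, by 1.27 ± 0.24. Nos2, the inducible nitric oxide synthase of activated macrophages, read 111, 111 and 109.6 in the untreated arrays and 111 and 103 in the IFNg arrays and did not pass the test (-0.05 ± 0.14, adjusted p = 0.913). Gch1, which makes its cofactor, had a higher mean (0.66 ± 0.19) and was not called (adjusted p = 0.233). All of these calls but that of Acod1 ended in some fits, Nampt (0.000327 to 0.0658), Wars (0.00118 to 0.0904) and Upp1 (0.0045 to 0.0658) without IFNg replicate 1, Ido1 (0.0118 to 0.225) without each of IFNg replicates 1 and 2 and Sod2 (0.00877 to 0.332) without each of IFNg replicates 1 and 2, untreated replicate 2 and IFNa replicates 1, 2 and 3, and that of Sod2 also after median centring (adjusted p = 0.0586). Nampt (0.0628), Wars (0.0733), Ido1 (0.109), Upp1 (0.0517) and Sod2 (0.228) also lost the call in the fit of these groups alone. The list kept 1 call without IFNg replicate 1.

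Genes of nucleic acid sensing and of related enzymes rose in 11 of 16 measured members, with a list median of 1.39. Of the PYHIN family, whose members bind DNA, Ifi205 read 138, 274 and 281 in the untreated arrays and 3225 and 2414 in the IFNg arrays and rose by log2 3.67 ± 0.29 (12.7-fold, adjusted p = 0.000203). Ifi213 read 63.1, 71.3 and 81.6 in the untreated arrays and 589.7 and 512 in the IFNg arrays (2.94 ± 0.19), and Ifi208 and Ifi203 rose by 2.32 ± 0.24 and 1.52 ± 0.16. Zbp1, a sensor of Z-form nucleic acid that can start necroptosis, read 313, 440 and 571 in the untreated arrays and 2732 and 2135 in the IFNg arrays (2.50 ± 0.23). Sting1, the adaptor of cytosolic DNA sensing, went from 535, 973 and 1057 to 4050 and 3290 (2.16 ± 0.34). Samhd1, which depletes nucleotides, rose by 1.34 ± 0.19, Trex1, a DNA exonuclease, by 1.45 ± 0.24, and Adar, an RNA editing enzyme, by 1.28 ± 0.18. The calls of these last 4 ended in some fits, Sting1 (0.0076 to 0.211), Samhd1 (0.00288 to 0.135), Trex1 (0.00403 to 0.199) and Adar (0.0011 to 0.107) without each of IFNg replicates 1 and 2, and in the fit of these groups alone, Sting1 (0.0587), Samhd1 (0.0758), Trex1 (0.132) and Adar (0.0727). Cgas (0.69 ± 0.22) and Aim2 (0.26 ± 0.21) were not called. The list had 6 calls without IFNg replicate 1 and 5 without IFNg replicate 2. Nod1, a sensor of bacterial cell wall, read 860.1, 843 and 1136 in the untreated arrays and 3369 and 3268 in the IFNg arrays (1.82 ± 0.15) and Tlr3, the receptor of double-stranded RNA, rose by 1.03 ± 0.17. They were the 2 of 23 Toll-like and NOD-like receptor genes called, a count of 1 without either IFNg array and of 4 without untreated replicate 3. The call of Tlr3 ended without each of IFNg replicates 1 and 2 and untreated replicate 1 (0.0202 to 0.297) and in the fit of these groups alone (0.0908).

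Antiviral genes, the class best known from type I interferon, rose in 20 of 38 measured members after IFNg, with a list median of log2 1.25. The largest were Parp9, at 247, 297 and 477 in the untreated arrays and 1951 and 1951 in the IFNg arrays (2.58 ± 0.24), and its partner Dtx3l (2.24 ± 0.30), a pair that modifies proteins by ubiquitin and ADP-ribose. Parp14 rose by 2.24 ± 0.17, the kinase gene Eif2ak2 (PKR) by 2.15 ± 0.29 and Herc6, the mouse ligase of ISG15, by 2.02 ± 0.23. Oas2, which makes the activator of RNase L, read 1209, 1053 and 1371 in the untreated arrays and 3644 and 3492 in the IFNg arrays (1.57 ± 0.15), and Xaf1 rose by 1.65 ± 0.16. Ifit1, which binds foreign RNA caps, rose by 1.59 ± 0.30 (adjusted p = 0.0333), while Ifit2 (0.39 ± 0.19) and Rsad2 (0.30 ± 0.28) were not called. Calls ended in some fits for Dtx3l (0.000195 to 0.0834) and Eif2ak2 (0.000265 to 0.0904) without each of IFNg replicates 1 and 2 and Ifit1 (0.0119 to 0.447) without each of IFNg replicates 1 and 2, untreated replicate 2 and IFNa replicates 1, 2 and 3. That of Ifit1 also ended after quantile normalization (adjusted p = 0.0549) and median centring (0.0542). Dtx3l (0.0815), Eif2ak2 (0.078) and Ifit1 (0.199) also lost the call in the fit of these groups alone. The list had 5 calls without IFNg replicate 1, 7 without IFNg replicate 2 and 11 without untreated replicate 2.

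Of 18 Schlafen and TRIM genes 8 were called higher (list median 1.27). Trim21, an antibody receptor in the cytosol that is also a ubiquitin ligase, read 295, 343 and 410.4 in the untreated arrays and 1237 and 1155 in the IFNg arrays (1.79 ± 0.15). Slfn5 went from 299.6, 538 and 796 to 3523 and 2982 (2.68 ± 0.33), and Slfn8 rose by 1.61 ± 0.22. Both Schlafen calls ended in some fits, Slfn5 (0.00142 to 0.0717) without IFNg replicate 1 and Slfn8 (0.002 to 0.082) without each of IFNg replicates 1 and 2, and in the fit of these groups alone, Slfn5 (0.0606) and Slfn8 (0.0711). The list had 1 call without IFNg replicate 1, 2 without IFNg replicate 2 and 3 without untreated replicate 2. In the list of ubiquitin-like modifiers and their partners 6 of 13 rose, of which 2 were called without IFNg replicate 1 and 3 without IFNg replicate 2.

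Cell death genes rose in 10 of 24 measured members, with a list median of 0.70. Casp12, a caspase of the inflammatory group, read 29.0, 30.6 and 27.9 in the untreated arrays and 169 and 187 in the IFNg arrays and rose by log2 2.61 ± 0.13 (6.11-fold, adjusted p = 6.85e-06). The untreated values lay near the 5th percentile of those arrays (28.9, 26.6 and 24.7), so that the fold is best read as a lower limit. Tnfsf10, the death ligand TRAIL, read 126, 153 and 150.1 in the untreated arrays and 706 and 475 in the IFNg arrays (2.02 ± 0.22). Casp4, the sensor of cytosolic lipopolysaccharide, rose by 1.87 ± 0.32, Casp1, which activates IL-1 beta and IL-18, by 1.34 ± 0.24, and Mlkl, the executioner of necroptosis, by 1.51 ± 0.24. Bcl2l11, the pro-apoptotic factor BIM, rose by 1.14 ± 0.23. Those 4 calls ended in some fits, Casp4 (0.00257 to 0.217) without each of IFNg replicates 1 and 2, Mlkl (0.00779 to 0.227) without each of IFNg replicates 1 and 2 and untreated replicate 2, Casp1 (0.00762 to 0.353) without each of IFNg replicates 1 and 2, untreated replicate 2 and IFNa replicates 1 and 2 and Bcl2l11 (0.0217 to 0.519) without each of IFNg replicates 1 and 2, untreated replicates 1, 2 and 3 and IFNa replicates 1, 2 and 3, and that of Bcl2l11 also after median centring (adjusted p = 0.0638), with an intensity trend in the variance (0.0635) and with a robust variance (0.053). Casp4 (0.156), Casp1 (0.158), Mlkl (0.119) and Bcl2l11 (0.11) also lost the call in the fit of these groups alone. The list had 4 calls without either IFNg array and 5 without untreated replicate 2.

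Other large rises fell outside these groups or stood alone in them. Prr5l, which binds the kinase complex mTORC2, read 89.8, 99.1 and 119.6 in the untreated arrays and 1013 and 896 in the IFNg arrays (3.22 ± 0.15). Gdap10 rose by 3.44 ± 0.20, and Hcar2, the receptor of niacin and of the ketone body beta-hydroxybutyrate, by 2.97 ± 0.34. Tnfaip2, a gene first found through its response to TNF, read 544, 770.2 and 960.1 in the untreated arrays and 4464 and 4588 in the IFNg arrays (2.62 ± 0.21). In the NF-kB list 3 of 18 measured genes rose (list median -0.01), namely Tnfaip2, Icam1 and Sod2. Fcgr1, the high-affinity receptor of IgG, read 387, 497 and 801 in the untreated arrays and 2875 and 2485 in the IFNg arrays (2.32 ± 0.27) and lost its call without IFNg replicate 1 (0.000501 to 0.051). Fcgr4 (2.28 ± 0.37) was the other call among 30 Fc, complement and uptake receptors, and it ended in some fits without each of IFNg replicates 1 and 2 and untreated replicate 2 (0.00404 to 0.217). Fcgr4 (0.133) also lost the call in the fit of these groups alone. This list had 0 calls without IFNg replicate 1 and 1 without IFNg replicate 2 or untreated replicate 2. None of the 16 genes measured for the list of complement proteins was called. They included Olfr48, an olfactory receptor gene, and the complement gene C3 was not among them.

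The 22 lowered genes included several receptors for soluble cues. S1pr1, the receptor for sphingosine 1-phosphate that guides exit from tissues, read 1119, 1613 and 1607 in the untreated arrays and 367 and 414 in the IFNg arrays. Both IFNg arrays were below all untreated arrays, as in every called fall, and the change was log2 -1.87 ± 0.32 (3.66-fold lower, adjusted p = 0.0194). Htr2a, a serotonin receptor, read 1218, 1168 and 1010 in the untreated arrays and 338 and 414 in the IFNg arrays (-1.59 ± 0.21). Gpr183, a receptor of oxysterols that guides cell position, changed by -1.57 ± 0.23 and P2ry2, a receptor of extracellular nucleotides, by -1.37 ± 0.24. Cd69, whose product binds S1PR1 and draws it from the cell surface, moved the other way, from 37.3, 33.4 and 43.5 to 168 and 251 (2.44 ± 0.29). In the list of traffic receptors, which also holds other membrane receptors such as Htr2a, 3 of 28 fell and 1 rose. Of all genes 0.111% were called lower and 1.24% higher. Members of the list were chosen with earlier results of these data known, so no excess can be read from these counts. The falls counted 0 without IFNg replicate 1 and 1 without either IFNg replicate 2 or untreated replicate 2. Each of these 5 calls ended in some fits, Htr2a (0.00159 to 0.0988) without IFNg replicate 1, Cd69 (0.00193 to 0.0526) without IFNg replicate 2, Gpr183 (0.00244 to 0.126) and P2ry2 (0.0131 to 0.314) without each of IFNg replicates 1 and 2 and untreated replicate 2 and S1pr1 (0.00572 to 0.243) without each of IFNg replicates 1 and 2 and untreated replicates 2 and 3. P2ry2 (0.0726) also lost the call in the fit of these groups alone.

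Among transcription factor genes that fell was Gata6, which maintains the identity of large peritoneal macrophages, at 3293, 3778 and 3967 in the untreated arrays and 1880 and 1427 in the IFNg arrays. Both IFNg arrays lay below all untreated arrays, a change of log2 -1.16 ± 0.21 (2.24-fold lower, adjusted p = 0.0242). Sox7 read 502, 652 and 462 in the untreated arrays and 185 and 159 in the IFNg arrays (-1.64 ± 0.21), and the genes of the repressor Gfi1b, the factor Nfic and the corepressor Cbfa2t3 changed by -1.06 ± 0.19, -1.02 ± 0.16 and -1.01 ± 0.18. The IFNg and untreated arrays did not overlap in any of these 5, as in every called gene. Engase, a cytosolic enzyme that trims glycans, changed by -1.38 ± 0.23 and Slc43a2, an amino acid transporter, by -1.05 ± 0.17. All 7 calls ended in some fits, Sox7 (0.00345 to 0.0804) without IFNg replicate 2, Slc43a2 (0.0123 to 0.236) without each of IFNg replicate 1 and untreated replicate 2, Nfic (0.0103 to 0.246) without each of IFNg replicates 1 and 2 and untreated replicate 2, Cbfa2t3 (0.0148 to 0.236) without each of IFNg replicates 1 and 2 and untreated replicates 1 and 2, Gata6 (0.00849 to 0.337) and Engase (0.00199 to 0.28) without each of IFNg replicates 1 and 2 and untreated replicates 2 and 3 and Gfi1b (0.0153 to 0.288) without each of IFNg replicates 1 and 2, untreated replicates 1 and 2 and IFNa replicates 1 and 2. Quantile normalization ended those of Gfi1b (adjusted p = 0.0938) and Cbfa2t3 (0.0572). Gata6 (0.0628), Gfi1b (0.0927), Nfic (0.112), Cbfa2t3 (0.0893) and Slc43a2 (0.0815) also lost the call in the fit of these groups alone. Among 26 markers of large peritoneal macrophages Gata6 was the 1 called lower, and Aspa the 1 called higher (1.14 ± 0.23, adjusted p = 0.0445). Aspa lost its call in 7 of the 9 fits that left out an array (0.0113 to 0.47), namely without each of IFNg replicates 1 and 2, untreated replicates 1 and 2 and IFNa replicates 1, 2 and 3, and after quantile normalization (0.0554), after median centring (0.0737), with an intensity trend (0.0578), without both arrays of narrow range (0.0726) and in the fit of these groups alone (0.148).

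**Figure D4:**
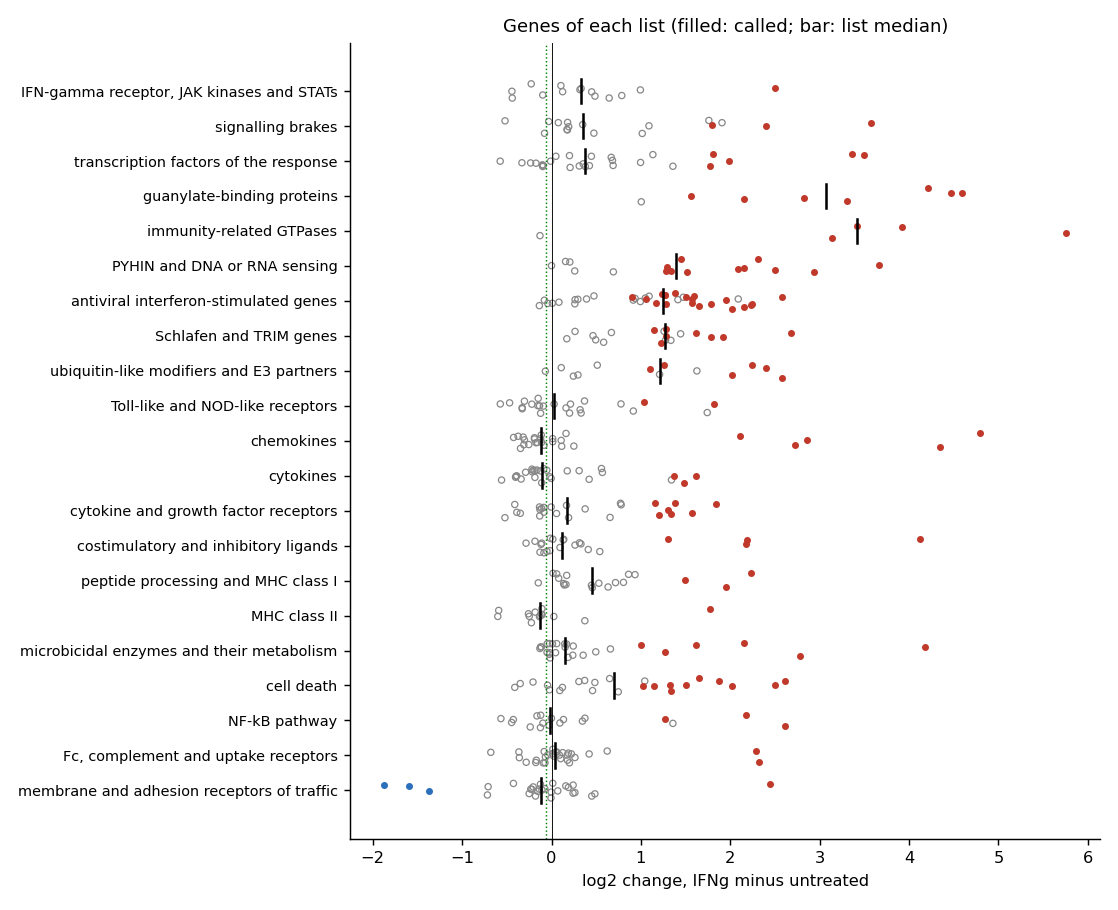
Log2 change between IFNg and untreated for the measured genes of 21 lists, 1 point per gene (red called higher, blue called lower, open not called), with a bar at each list's median and a dotted line at the median of all genes, -0.06. The GTPase lists lie furthest to the right, and the 3 called falls are in the list of traffic receptors.

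A direct test against the 4 IFNa arrays showed where the response to IFNg differed from that to IFNa at these doses, 8000 and 10000 U. Of all genes 106 were higher after IFNg (0.537%) and 87 lower (0.44%), so that 54.9% of calls were higher, a share that quantile normalization moved to 42% (116 higher and 160 lower). The gene furthest above was Cxcl9, at 2854 and 2068 after IFNg and 131, 141, 146 and 161 after IFNa, a difference of log2 4.07 ± 0.19 (16.8-fold, adjusted p = 1.11e-05). Acod1 differed by 2.99 ± 0.18, Tnfaip2 by 2.29 ± 0.20, the adhesion G-protein-coupled receptor gene Adgrf5 by 2.28 ± 0.22, Irf8 by 2.08 ± 0.17 and Icam1 by 2.01 ± 0.20. Ciita (1.64 ± 0.15) and Il18rap (1.83 ± 0.14) also stood above IFNa. Against untreated, the IFNa arrays differed by 0.27 in Cxcl9, -0.09 in Irf8, 0.13 in Ciita, 0.16 in Icam1 and 0.00 in Il18rap, none of which was called, where 1.79% of all genes were called higher after IFNa and 0.856% lower. Gatm, the first enzyme of creatine synthesis, differed between the interferons by 2.59 ± 0.37 and Bcl2l11 by 2.00 ± 0.22. Bcl2l11 read 985 and 1246 after IFNg, 404, 569.9 and 549 untreated and 258, 327, 329.7 and 213 after IFNa.

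Antiviral genes lay on the other side. Rsad2, which encodes viperin, read 207 and 207 after IFNg and 8265, 8058, 8128 and 10415 after IFNa, a difference of log2 -5.39 ± 0.26 (41.8-fold lower after IFNg, adjusted p = 1.11e-05). Ifit3, Ifit2 and Ifit1 differed by -5.34 ± 0.22, -5.21 ± 0.18 and -4.53 ± 0.28, and Mx1, an antiviral GTPase, by -3.67 ± 0.29. Of 38 antiviral genes 18 were lower after IFNg than after IFNa and none was higher, and the median difference was -0.91. Il6, an inflammatory cytokine, differed by -2.87 ± 0.33. No call was made between the interferons for Iigp1 (0.54 ± 0.26), Gbp5 (0.49 ± 0.18), Cxcl10 (-0.68 ± 0.24), Cd274 (0.73 ± 0.25) or Irf1 (1.11 ± 0.24, adjusted p = 0.0871). Socs1 fell just short (1.57 ± 0.31, adjusted p = 0.0534). A missed threshold does not show that the 2 interferons acted alike on these genes. Calls between the interferons ended in some fits for Bcl2l11 (0.00227 to 0.0581) without IFNg replicate 2 and Gatm (0.00135 to 0.172) and Il6 (0.00204 to 0.0611) without each of IFNg replicates 1 and 2. The counts were 21 higher and 21 lower without IFNg replicate 1, 32 and 24 without IFNg replicate 2, 68 and 53 without IFNa replicate 1, and 63 and 49 without IFNa replicate 3. They were 292 and 250 without both arrays of narrow range.

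**Figure D5:**
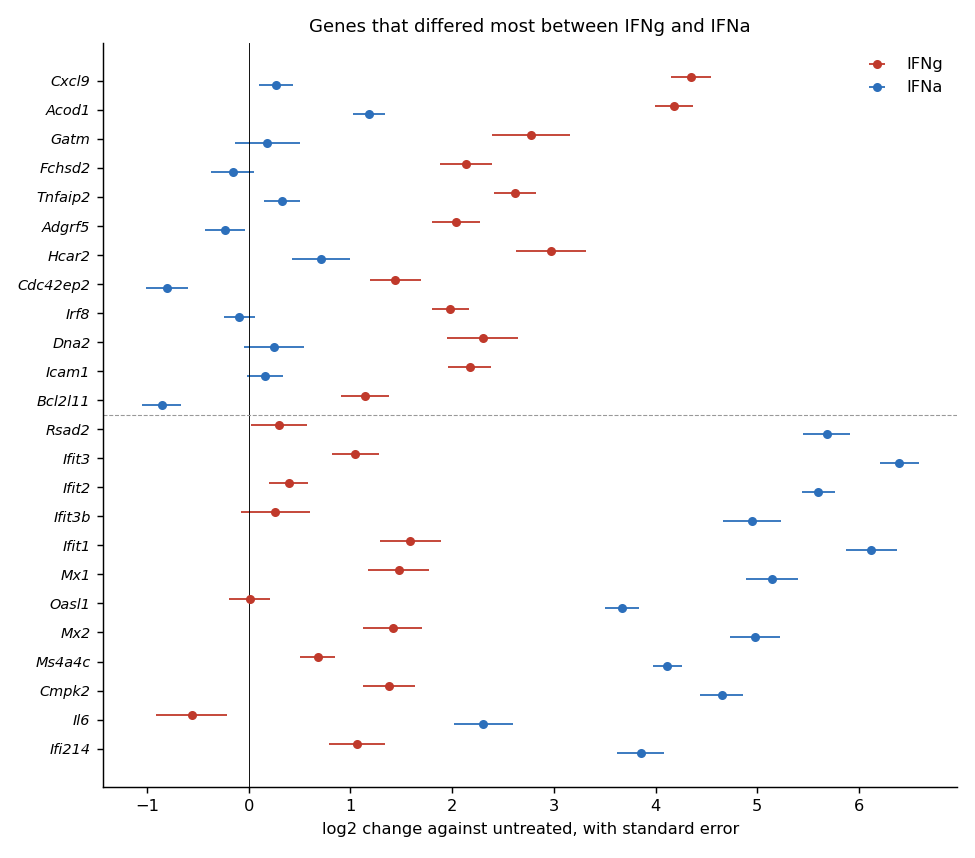
Log2 change against untreated after IFNg (red) and after IFNa (blue), with the standard error, for the 12 genes furthest above and the 12 furthest below IFNa after IFNg among called genes without overlap. Both changes use the same 3 untreated arrays, and the genes were chosen by the difference between the colours. Cxcl9 stands at 4.34 after IFNg and 0.27 after IFNa, Rsad2 at 0.30 and 5.68.

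Genes that can respond to the handling of cells and animals were mostly without a call. The shares called higher among immediate early genes and glucocorticoid targets were still above the 1.24% of all genes. Of 23 immediate early genes 2 rose, the stress factor gene Atf3 (1.71 ± 0.25) and Egr2 (1.64 ± 0.30), with Egr2 at 172, 191 and 195 in the untreated arrays and 364 and 919 in the IFNg arrays. Their calls ended in some fits, Atf3 (0.00193 to 0.14) without each of IFNg replicates 1 and 2 and Egr2 (0.000841 to 0.114) without each of IFNg replicate 2, untreated replicates 1, 2 and 3 and IFNa replicates 1, 2 and 3, and that of Egr2 also without both arrays of narrow range (adjusted p = 0.0681). Atf3 (0.101) and Egr2 (0.219) also lost the call in the fit of these groups alone. This list had 0 calls without IFNg replicate 2 and 3 without IFNa replicate 4. Summed intensity of this list was 13299 to 23297 untreated and 16103 to 21374 after IFNg, and the part of these genes in the other results was not tested. Among 17 glucocorticoid targets Fkbp5, a co-chaperone of the steroid receptors, was called (2.58 ± 0.26). It read 103, 124 and 178 in the untreated arrays and 997 and 620.4 in the IFNg arrays. The IFNa arrays also stood above the untreated ones in Fkbp5, at 761, 631, 642 and 627. Without IFNa replicate 4 the list of glucocorticoid targets had 2 calls. Its summed intensity was 12263 to 19653 untreated and 18360 to 19295 after IFNg. Mt2, a metallothionein gene, had a mean higher by 3.28 ± 0.76 that was not called (adjusted p = 0.0918). No heat shock gene of 10, no sterol synthesis gene of 18 and no cell cycle gene of 25 was called. All 10 heat shock genes had higher means after IFNg (0.13 to 1.00), though the IFNg arrays lay above all untreated arrays in only 1. The list median was 0.48 after IFNg and 0.51 after IFNa, against -0.06 over all genes for IFNg. The cell cycle list had a median of 0.75, with the IFNg arrays above all untreated arrays in 17 of its 25 genes, against 12.3% of all genes. In the B cell list none of 14 genes was called, and the IFNg arrays lay below all untreated arrays in 9, against 15.5% of all genes, with a summed intensity of 1662 to 2101 untreated and 1368 to 1474 after IFNg. Klrk1, at 43.7, 37.8 and 46.3 in the untreated arrays and 78.4 and 85.1 in the IFNg arrays, was the only call among the markers of other cell types, and it ended without either IFNg array (0.0073 to 0.146). In bulk samples fewer cells of a type and less RNA per cell cannot be told apart.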

How the data were processed

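RNA of sorted peritoneal macrophages was measured on 9 Affymetrix whole-transcript arrays, 1 per sample. The authors deposited 1 intensity per probe set on a linear scale, made with RMA and Affymetrix Power Tools per the submitters' processing notes, which name no version here. RMA corrects background and normalizes between arrays, and which arrays were normalized together is not given in the sources used here. Arrays give no counts, so their number limits the precision.

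Of 24922 deposited probe sets, 21425 had exactly 1 gene symbol in the platform table, 1399 had several and 2098 none. The brightest probe set over all arrays stood for each of 19752 genes. The deposited intensities were taken to log2 and fitted as 3 group means on all 9 arrays with limma 3.58.1 (lmFit and eBayes, R 4.3.3), which gave 6 residual and 3.62 prior degrees of freedom. Adjusted p-values are limma's, two-sided, with Benjamini-Hochberg adjustment over all genes of a comparison, and a call needs an adjusted p under 0.05. The fit was tested on simulated data first, with 200 genes changed. Against untreated it recovered 65% of 2-fold and 99% of 4-fold changes, and 7 and 8 unchanged genes were called. The simulation gave each gene the same spread on all arrays, whereas the real groups differed in spread. A value after ± is the fit's standard error, and a fold is 2 to the power of the log2 change.

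Genes were named as the 30 largest called rises and 15 largest falls against untreated and the 12 largest called differences each way against IFNa, all without overlap between arrays and leaving aside predicted genes and olfactory, vomeronasal and taste receptors. To these were added called members of 35 gene lists, up to 4 uncalled members per list with the smallest p, and 26 set genes. Not every gene so named is described. Members and lists were chosen with earlier results of these data known. Alternatives were quantile normalization, median centring, leaving out the dimmest 30% of genes, an intensity trend or robust variance, a fit of only the groups compared, every probe set, a 2-fold minimum, leaving out each array or both narrow ones, and a replicate block. The replicate numbers of titles and descriptions differ, and the samples were treated as unpaired.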

Additional observations from a re-analysis of the deposited data

Results flagged for a closer look

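Of 131 genes of the text tested in the 4 IFNa arrays, 12 had 1 array far from the other 3, a number to be read against the 1 in 20 that chance flags. IFNa replicate 4 also stood apart as an array, with a mean correlation with the other arrays of 0.956 against 0.978 to 0.982 in the other IFNa arrays. It read highest in Socs3 (1971 against 797 to 877), Nlrc5 (3370 against 2128 to 2260), Rsad2 (10415 against 8058 to 8265), Adar (1536 against 1339 to 1350) and Cxcl11 (72.4 against 61.6 to 61.8). It read lowest in Ifngr1 (1138 against 1768 to 1910) and H2-T24 (2795 against 3531 to 3702). IFNa replicate 1 read highest in Ifi213 (3506 against 2403 to 2526) and Fkbp5 (761 against 627 to 642), and lowest in Fcgr4 (2228 against 2912 to 2936) and Trex1 (722 against 809 to 821). IFNa replicate 2 read lowest in Tnfaip2 (863 against 945 to 951). The IFNg and untreated groups are too small for this check.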

How the results depend on the processing

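The alternatives were checked for single genes except for the fit of every probe set and the 2-fold minimum. Of 149 gene changes checked, 114 were called. None of these changed sign in any alternative so checked, and 59 kept the call in every one. Uncalled changes near 0 turned sign for Nos2 (0.04 after quantile normalization, -0.11 to 0.01 leaving out 1 array), Adgre1 (-0.01 and -0.01 to 0.03), Icam2 (-0.09 and -0.04 to 0.12) and Rsad2 (-0.03 without both narrow arrays, -0.03 to 0.48 leaving out 1 array).

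Leaving out 1 array gave 79 to 363 rises and 1 to 44 falls against untreated, and 21 to 146 genes higher and 21 to 130 lower against IFNa. Against untreated, only the groups compared gave 112 rises and 7 falls, quantile normalization 80 falls, a 2-fold minimum 13 falls, and the fit without both narrow arrays 145 falls. Against IFNa the latter gave 292 higher and 250 lower, and quantile normalization 160 lower.

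The replicate numbers were checked as pairs. Deviations of same-numbered arrays correlated at -0.211 to 0.604 by the titles and -0.442 to 0.106 by the descriptions. Not every pair exceeded 0.1, so the arrays were treated as sharing only a number, though the deviations of the 2 IFNg arrays are mirror images and weigh little. With the replicate block of the titles 589 rises and 110 falls were called against untreated, with that of the descriptions 232 and 25, and 56 genes higher than after IFNa.

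With 2 and 3 arrays a missed call says little about stability, and leaving out an IFNg array leaves 1, which is then assumed to vary like the other groups. Among all genes, 1626 had an unadjusted p under 0.05 against untreated.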
